A study of Mus musculus with 6 samples.

Results

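Matrix metalloproteinases (MMPs) and their tissue inhibitors (TIMPs) were followed in adult mouse muscle with and without Dock3. The group holds 9 genes of the 54393 in the deposited table, chosen by symbol: the proteases Mmp2, Mmp9, Mmp14, Mmp15 and Mmp19 and the inhibitors Timp1, Timp2, Timp3 and Timp4. All 9 symbols were found through the GENCODE M21 annotation. They were chosen with earlier results of these data known, so the choice cannot be taken as independent of the values. RNA was sequenced from the tibialis anterior (TA), the large muscle along the shin, with n = 3 muscles labelled WT and n = 3 labelled Dock3 KO, all from mice described only as adult. The titles of the WT samples begin with C57. The strain of the Dock3 KO mice, the design of the Dock3 allele, the sex of the mice and whether the muscles of a group came from separate animals are not given in the sources used here, so p-values measure only the spread between these muscles. Dock3 encodes a guanine nucleotide exchange factor that activates the small GTPase Rac, and the comparison asks which transcripts differ in muscle that lacks it.

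MMPs are zinc-dependent enzymes that cut collagens, gelatin, laminin and other matrix proteins outside the cell. They are made as inactive precursors and are opened by other proteases, and TIMPs shut them off by plugging the active site. Mmp2 and Mmp9 encode the gelatinases, Mmp14 and Mmp15 encode membrane-type enzymes, and the Mmp14 protein activates the Mmp2 precursor in a complex that needs Timp2. In muscle these enzymes are known for remodelling the matrix around fibres during growth and repair. RNA levels do not show how much of an enzyme is active.

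The stretches of coding sequence that put an enzyme and its inhibitor in contact are shown first, because they are what makes these 9 genes one system. In the MMPs the capitals mark the codons of the 3 histidines that hold the catalytic zinc. Each line is 33 bases of coding exon, 5′ to 3′, read from the GENCODE M21 transcripts (GRCm38).
Mmp2: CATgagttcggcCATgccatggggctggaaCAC
Mmp9: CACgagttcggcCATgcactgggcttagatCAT
Mmp14: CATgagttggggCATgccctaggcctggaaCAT
Mmp15: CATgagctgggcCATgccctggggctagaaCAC
Mmp19: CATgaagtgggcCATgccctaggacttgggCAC
These lie at chr8:92839279-92839311 in exon 8 of Mmp2, chr2:164951133-164951165 in exon 8 of Mmp9, chr14:54437627-54437659 in exon 5 of Mmp14, chr8:95368585-95368617 in exon 5 of Mmp15 and chr10:128795673-128795705 in exon 5 of Mmp19, all on the plus strand. Between pairs of MMPs, 21 (Mmp9 and Mmp19) to 29 (Mmp2 and Mmp15) of the 33 bases were identical. The gelatinases Mmp2 and Mmp9 shared 25 and the membrane-type genes Mmp14 and Mmp15 shared 27.

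In the TIMPs the matching stretch is the start of the mature protein, whose first cysteine sits on the zinc of the enzyme. Here the capitals mark the codons of the first and the third residue, both cysteines, in 24 bases of coding exon.
Timp1: TGTagcTGTgccccaccccaccca
Timp2: TGCagcTGCtccccggtgcacccg
Timp3: TGCacaTGCtctcccagccatccc
Timp4: TGCagcTGTgcgcctgcgcacccc
Their positions are chrX:20871111-20871134 in exon 2 of Timp1 (plus strand), chr11:118354989-118355012 in exon 1 of Timp2 (minus strand), chr10:86300923-86300946 in exon 1 of Timp3 (plus strand) and chr6:115251668-115251691 in exon 1 of Timp4 (minus strand). Pairs of TIMPs shared 13 (Timp1 and Timp3) to 18 of the 24 bases. No transcript of another gene matched any of the 9 at 95% identity or more over at least 50% of the shorter transcript, so no near-identical copy was found that could take their reads.

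Facts of the whole series that touch these genes are few. Dock3 itself measured 169, 161 and 118 normalized counts in the WT muscles (replicates 1, 3 and 4, the order used throughout), against 22.4, 1.78 and 1.54 in Dock3 KO (replicates 1, 2 and 3), a log2 difference of -4.76 with a limma adjusted p of 0.0140. The difference lay between -5.94 and -3.27 in 20 alternatives and passed the threshold in 14 of them. It did not pass without WT replicate 1, 3 or 4 or Dock3 KO replicate 2 (limma adjusted p 0.0651, 0.0771, 0.0591 and 0.0708), with a prior variance without trend (0.123) or with log2 Gm42418 as a covariate (0.0836). Markers of muscle fibres were abundant in all 6 muscles, with summed levels of 8 genes (Acta1, Ckm and Ttn among them) from 1583120 to 1958580 in WT and from 1672290 to 2029140 in Dock3 KO. The low values put the depth very roughly at 21700000 to 32400000 counted reads per sample. Only 13.95% to 20.75% of low values were whole multiples of the unit taken as 1 read. Gm42418 and Lars2 together took 17.9% and 20.3% of the summed counts of Dock3 KO replicates 1 and 2, and 3.00% to 3.64% of the other 4 samples. These libraries stand apart, so results are also given without them where they matter. With Dock3 KO replicate 3 as the lone Dock3 KO sample, that sample is assumed to vary as the WT samples do.

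Over the 8 members tested, the abundant Mmp2, Timp2 and Timp3 had Dock3 KO means of 1.07, 0.910 and 0.885 times the WT mean, while the less abundant Mmp9 and Mmp14 stood at 2.02 and 1.51 times WT, with higher values in each Dock3 KO muscle than in any WT muscle. None of the 8 passed the threshold, an adjusted p under 0.05 in limma over all genes tested. Among all 16031 genes tested, 1.03% passed it, 0.443% higher and 0.586% lower in Dock3 KO. At an unadjusted limma p under 0.05 there were 2 members, Mmp9 and Mmp14, both higher in Dock3 KO, against 4.82% of all genes higher and 5.7% lower. Values of the genotypes did not overlap for 4 of the 8 members, 3 higher (Mmp2, Mmp9 and Mmp14) and 1 lower (Timp3), against 16.2% of all genes tested (7.6% higher and 8.65% lower). Timp1 had a mean under 10 normalized counts over the 6 samples and was not tested. In whole muscle, fewer cells of a type and less RNA per cell cannot be told apart.

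**Figure D1:**
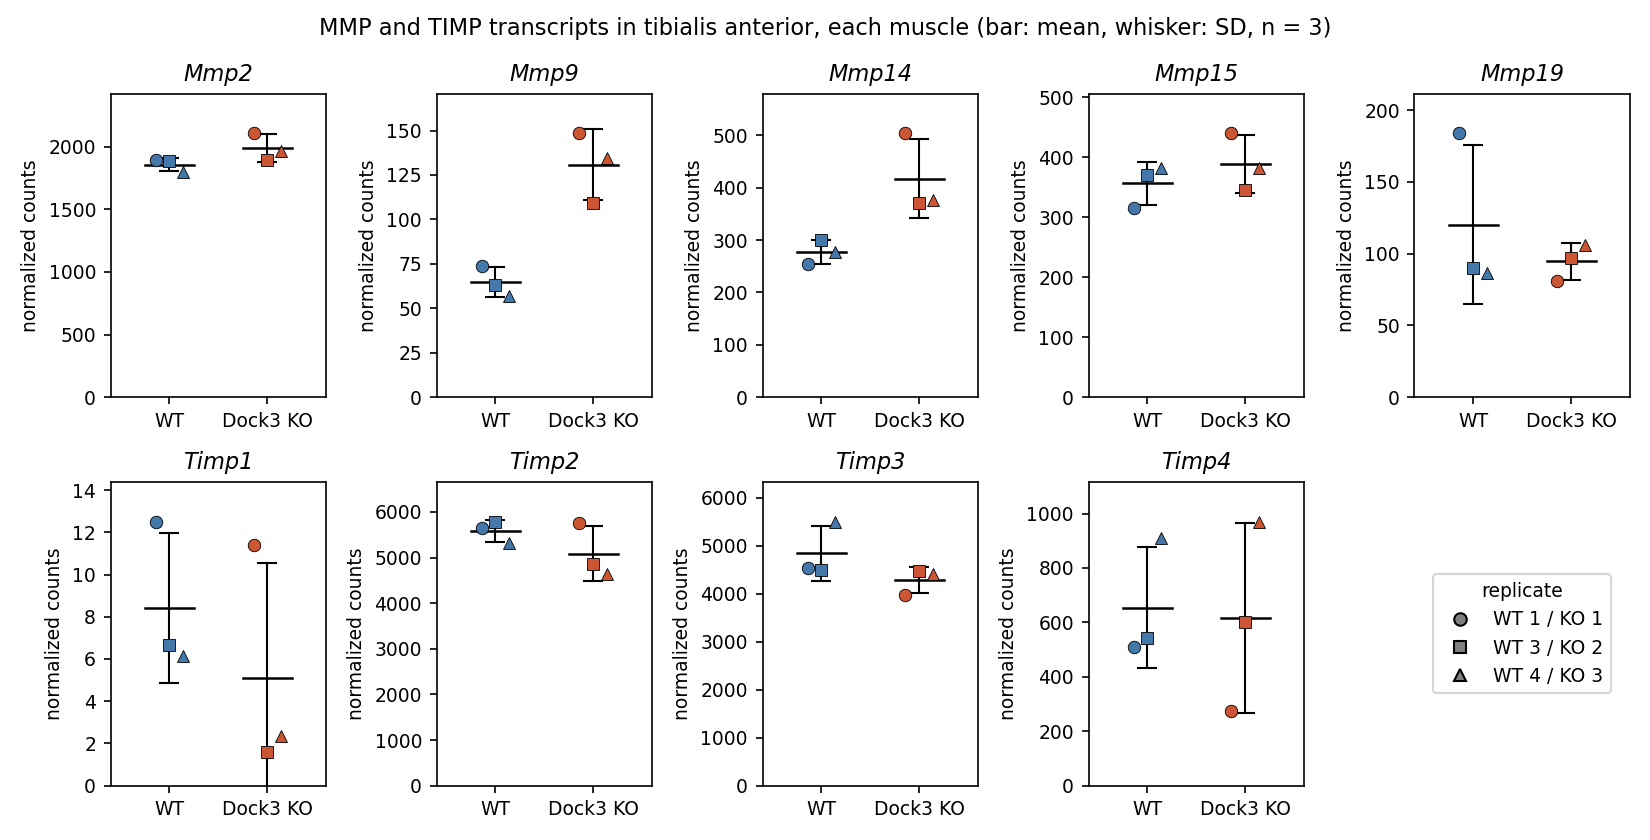
Normalized counts (vertical axes, each starting at 0) of the 9 genes in each muscle, WT in blue and Dock3 KO in red, with a bar at the mean and a whisker of 1 SD (n = 3), cut off at 0 for Timp1. The Dock3 KO points of Mmp9 (109 to 149) and Mmp14 (371 to 504) all lie above the WT points (57.1 to 74.0 and 254 to 300), while those of Mmp15, Mmp19, Timp1, Timp2 and Timp4 overlap WT.

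Levels per length put the members in order. On the scale of normalized counts per kb of merged exons, means over the 6 muscles were 1369 for Timp2, 571 for Mmp2, 561 for Timp3, 108 for Timp4, 69.1 for Mmp15, 58.3 for Mmp14, 30.4 for Mmp19, 27.6 for Mmp9 and 7.62 for Timp1. Timp2 lay above all others in every muscle. The ranges over the 6 muscles separated Timp2 from Mmp2, Timp3 from Timp4 and Mmp9 from Timp1, and overlapped between all other neighbours in that order. Mmp2 made up 77.0% of the summed level per kb of the 5 MMPs in WT and 74.1% in Dock3 KO, and Timp2 made up 66.7% and 67.2% of that of the 4 TIMPs. Mmp9 and Mmp14 together are the smaller part: Mmp9 went from 2.55% of the MMP sum in WT to 4.64% in Dock3 KO, and Mmp14 from 6.49% to 8.80%. Length matters most for 2 of these levels, because the merged exons of Timp3 and Mmp14 are much longer than their longest transcripts. The shares above rest on merged exons and were not computed with the longest transcript. With the longest transcript as the length, Timp3 stood at 967 per kb, above Mmp2 at 625, and Mmp14 at 107, above Mmp15 at 72.6.

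**Figure D2:**
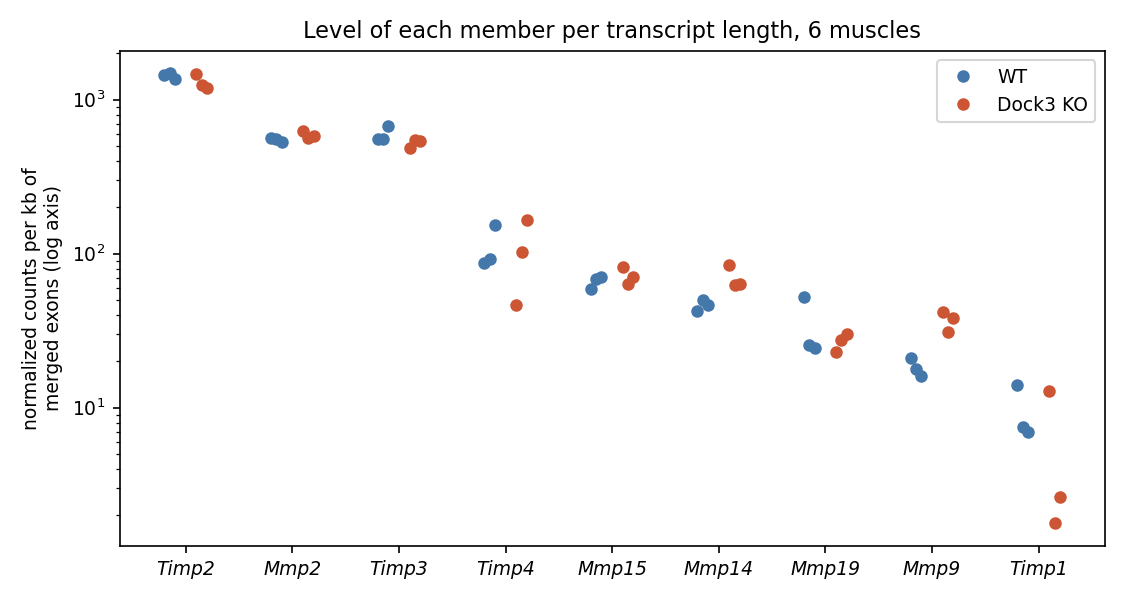
Level of each member in normalized counts per kb of merged exons (log axis), 1 point per muscle, WT in blue and Dock3 KO in red, ordered by the mean over 6 muscles. Timp2 lies between 1188 and 1485 in all muscles, and Timp1 between 1.78 and 14.1.

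Mmp9, the gelatinase B gene (ENSMUSG00000017737, chr2:164940780-164955850, plus strand), showed the largest difference of the tested members. The WT muscles held 74.0, 63.0 and 57.1 normalized counts, and the Dock3 KO muscles 149, 109 and 134. Every Dock3 KO muscle was above every WT muscle, and the lowest Dock3 KO value belonged to replicate 2. The WT mean of 64.7 ± 8.61 compared with 131 ± 19.9 in Dock3 KO (SD, n = 3 each). The difference was 1.0 on the log2 scale (standard error 0.233, 95% interval 0.48 to 1.52; limma, unadjusted p 0.00163, adjusted p 0.105). It ranked 248 by p among the genes tested and so missed the threshold. An exact two-sided permutation test of the 3 against 3 values gave p = 0.1, the smallest this design allows. Rescaling each sample to the same total, which put the median of all genes at -0.28, left a log2 difference of 0.73. The adjusted p ran from 0.0763 to 0.557 over 20 alternatives (limma). With Dock3 KO replicate 3 alone against WT the difference was 1.05 (limma adjusted p 0.514).

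Mmp2, the gelatinase A gene (ENSMUSG00000031740, chr8:92827291-92853420, plus strand), is by far the more abundant gelatinase transcript in this muscle. WT values were 1893, 1884 and 1797 normalized counts, and Dock3 KO values were 2109, 1895 and 1965. The groups did not overlap, but only by the step from 1893 to 1895. On the log2 scale the difference was 0.098 (standard error 0.115, limma adjusted p 0.851). Its 95% interval runs from 0.896-fold to 1.28-fold, which leaves out a difference of the size estimated for Mmp9. Rescaled to the same total, which put the median of all genes at -0.28, the difference was -0.18, and that of Mmp15 was -0.15. The direction of both thus depends on the scaling. Relative to that median they stood at 0.10 and 0.13. With Gm42418 and Lars2 left out of the total, the differences of Mmp2 and Mmp15 were -0.0055 and 0.021.

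Mmp14, which encodes the membrane-type enzyme that activates the Mmp2 precursor (ENSMUSG00000000957, chr14:54431612-54445364, plus strand), measured 254, 300 and 278 normalized counts in the WT muscles, against 504, 371 and 377 in the Dock3 KO muscles. All Dock3 KO values were above all WT values, and replicate 1 was well above the other two. The means were 277 ± 23.4 for WT and 417 ± 75.4 for Dock3 KO (SD, n = 3 each). The difference was 0.58 on the log2 scale (standard error 0.173, 95% interval 0.19 to 0.96; limma, unadjusted p 0.00772, adjusted p 0.228). Without Dock3 KO replicate 1 it was 0.43, and with Dock3 KO replicate 3 alone 0.45. Rescaled to the same total it was 0.30, or 0.58 relative to the median of all genes. No alternative brought it past the threshold.

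Mmp15 (ENSMUSG00000031790, chr8:95352268-95375080, plus strand) encodes a second membrane-type MMP of the same architecture. Its WT values of 316, 371 and 382 normalized counts overlapped the Dock3 KO values of 440, 345 and 382. Only Dock3 KO replicate 1 lay clearly above the WT range, and the difference was 0.12 on the log2 scale (standard error 0.161, limma adjusted p 0.870). Its 95% interval, 0.849-fold to 1.40-fold, overlaps that of Mmp14, 1.14-fold to 1.95-fold, and the difference between these genes was not tested.

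**Figure D3:**
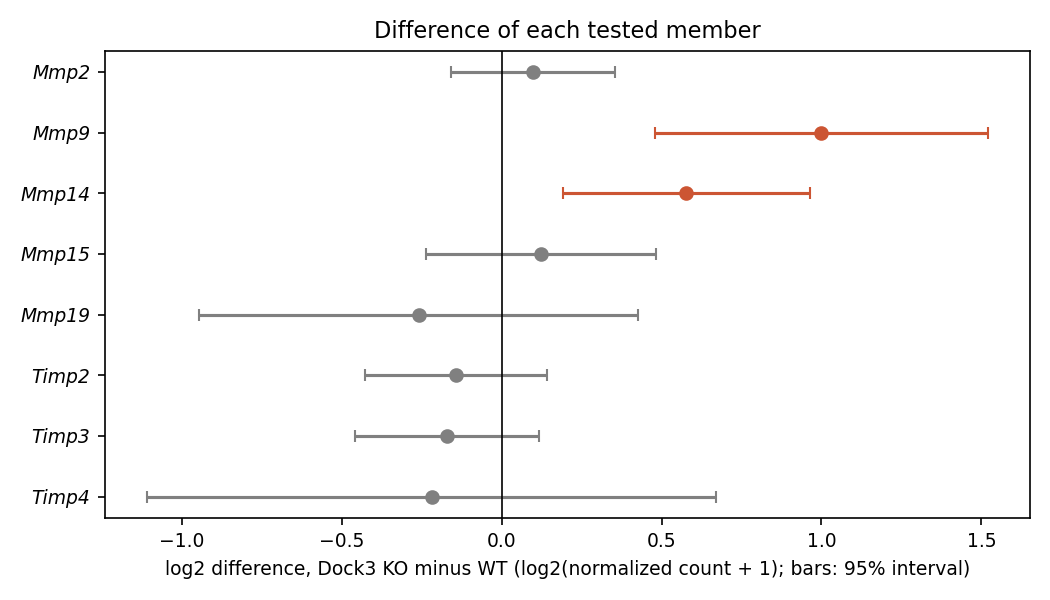
Log2 difference of each tested member, Dock3 KO minus WT, on the log2(normalized count + 1) scale with its 95% interval from limma, in red where the unadjusted p is under 0.05. The intervals of Mmp9 (0.48 to 1.52) and Mmp14 (0.19 to 0.96) lie above 0, those of the other 6 include 0, and no adjusted p is under 0.05.

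The sequences before the start sites of Mmp14 and Mmp15 are shown as the pair of membrane-type genes of which one had separate groups and the other did not. Each is the 250 bases before the RefSeq start (GRCm38.p6, plus strand), at chr14:54431348-54431597 for Mmp14 and chr8:95352046-95352295 for Mmp15, where the last 28 bases lie inside the GENCODE gene. Capitals mark matches to the GC box GGGCGG on either strand.
Mmp14: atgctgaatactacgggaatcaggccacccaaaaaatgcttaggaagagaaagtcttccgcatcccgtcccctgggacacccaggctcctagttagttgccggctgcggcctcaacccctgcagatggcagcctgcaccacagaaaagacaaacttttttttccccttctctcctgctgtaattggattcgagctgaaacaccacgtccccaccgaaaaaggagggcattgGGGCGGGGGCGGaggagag
Mmp15: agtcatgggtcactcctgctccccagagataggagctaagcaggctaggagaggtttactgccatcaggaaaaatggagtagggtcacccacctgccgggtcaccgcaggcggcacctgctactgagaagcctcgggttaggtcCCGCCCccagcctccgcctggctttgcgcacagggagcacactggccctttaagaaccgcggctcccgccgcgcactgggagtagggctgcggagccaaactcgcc
Mmp14 held 2 GC boxes side by side, starting 19 and 13 bases before the start, and Mmp15 held 1, on the other strand, 106 bases before it. A GC box was present in 32.7% of the 32851 promoter windows of the same length in the table. Neither window held the AP-1 motif TGANTCA (6.75% of all windows) or the letters TATAAA (12.4%), searched on both strands, and no matches overlapped. Of the 9 members, 6 have a window in the table. A GC box was found in 5 of these 6 (not in Timp4), and AP-1 and TATAAA in 0 of 6. All 250 bases of the Timp2 window and 40 bases of the Timp3 window lie inside the GENCODE gene. The letters G and C made up 53.6% (Timp4) to 68.0% (Timp2) of the 6 windows, against a median of 52.4% over all windows. A match is a description of letters in a window and says nothing of binding.

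Mmp19 (ENSMUSG00000025355, chr10:128790910-128800824, plus strand) encodes a secreted MMP that stands apart from the gelatinases and the membrane-type enzymes. WT muscles held 184, 89.9 and 86.4 normalized counts, and Dock3 KO muscles 80.7, 96.8 and 106. WT replicate 1 stood high and the other 5 muscles lay between 80.7 and 106. The difference was -0.26 on the log2 scale (standard error 0.308, limma adjusted p 0.853), and without WT replicate 1 it was 0.091. Mmp19 overlaps Tmem198b and the antisense gene Gm47093, both on the opposite strand.

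Timp2 and Timp3 are the abundant inhibitors, and both had slightly lower means in Dock3 KO without passing the test. Timp2 (ENSMUSG00000017466, chr11:118301069-118355740, minus strand), whose protein both inhibits MMPs and takes part in the activation of the Mmp2 precursor, measured 5652, 5787 and 5317 normalized counts in WT muscles, against 5765, 4857 and 4629 in Dock3 KO muscles. Dock3 KO replicate 1 lay within the WT range and the others below it. The difference was -0.14 on the log2 scale (standard error 0.127, limma adjusted p 0.776), an interval of 0.744-fold to 1.10-fold.

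Timp3 (ENSMUSG00000020044, chr10:86300372-86349506, plus strand), the inhibitor that is bound to the matrix, measured 4531, 4500 and 5506 normalized counts in WT, against 3977, 4485 and 4407 in Dock3 KO. The highest Dock3 KO value lay just under the lowest WT value, so that the groups did not overlap. On the log2 scale this was a difference of -0.17 (standard error 0.129, limma adjusted p 0.725), an interval of 0.727-fold to 1.08-fold. It was -0.45 when rescaled to the same total, or -0.17 relative to the median of all genes. Without WT replicate 4, the highest WT value, it was -0.076, and it did not pass in any alternative.

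Timp4 (ENSMUSG00000030317, chr6:115241892-115252205, minus strand), an inhibitor known for its expression in heart and muscle, varied more among muscles of a group than between groups. The WT values were 511, 543 and 910 normalized counts, and the Dock3 KO values 273, 603 and 970. Both the lowest and the highest of the 6 values were Dock3 KO. The estimate was -0.22 on the log2 scale (standard error 0.399, limma adjusted p 0.915), with an interval wide enough (0.464-fold to 1.59-fold) to hold a substantial change either way. The estimate was 0.28 without Dock3 KO replicate 1 and 0.62 with Dock3 KO replicate 3 alone.

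Timp1 (ENSMUSG00000001131, chrX:20870166-20874735, plus strand), the inhibitor best known as an inducible gene of inflamed and healing tissue, was close to the limit of detection. WT muscles held 12.5, 6.64 and 6.14 normalized counts, and Dock3 KO muscles 11.4, 1.58 and 2.35. In Dock3 KO replicate 2, where 1 read was taken as 1.525 normalized counts, a rough unit, the value corresponds to about 1 read. The groups overlapped. A difference at this level was not detectable, and limma run with no filter on low values put it at -0.93 on the log2 scale (adjusted p 0.824).

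Of the TIMP genes, 3 are nested in other genes. Timp1 lies inside Syn1, Timp3 inside Syn3 and Timp4 inside Syn2, each on the opposite strand of a synapsin gene, and Timp4 also lies inside Gm17482. Syn1 was listed at 0 to 39.2 normalized counts over the 6 muscles, Syn2 at 8.94 to 46.8 and Syn3 at 6.64 to 36.2. These values are small beside those of Timp3 and Timp4, but those of Syn1 are of the same size as Timp1. The libraries are stranded, per the labels' protocols, while the use of strand in counting is not given in the sources used here, so reads of Timp1 and Syn1 could be mixed. Cep295nl lies inside Timp2 on the same strand, at 16.1 to 45.4 normalized counts. Mmp2, Mmp9, Mmp14 and Mmp15 overlap no other annotated gene.

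Ratios within a muscle do not depend on a factor that multiplies every gene of a sample alike. The pairs that act together were therefore compared that way, as a description with no test. Whether the deposited values carry only such factors is not given in the sources used here. The log2 ratio of Mmp14 to Timp2, per kb, was -5.09, -4.88 and -4.87 in WT and -4.13, -4.33 and -4.23 in Dock3 KO. Every Dock3 KO muscle had more Mmp14 RNA for its Timp2 RNA than any WT muscle, by 0.72 between the means. The log2 ratio of Mmp2 to Timp2 was -1.37, -1.41 and -1.36 in WT and -1.24, -1.15 and -1.03 in Dock3 KO. This ratio too was separate between the groups, with a smaller gap of 0.24 between the means. Mmp2 and Mmp14 were also separate by themselves, and Timp2 was not. How often the ratios of other gene pairs separate was not computed. Of all single genes tested, 16.2% had separate groups. In all 6 muscles Timp2 had a higher level per kb than Mmp2 or Mmp14.

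**Figure D4:**
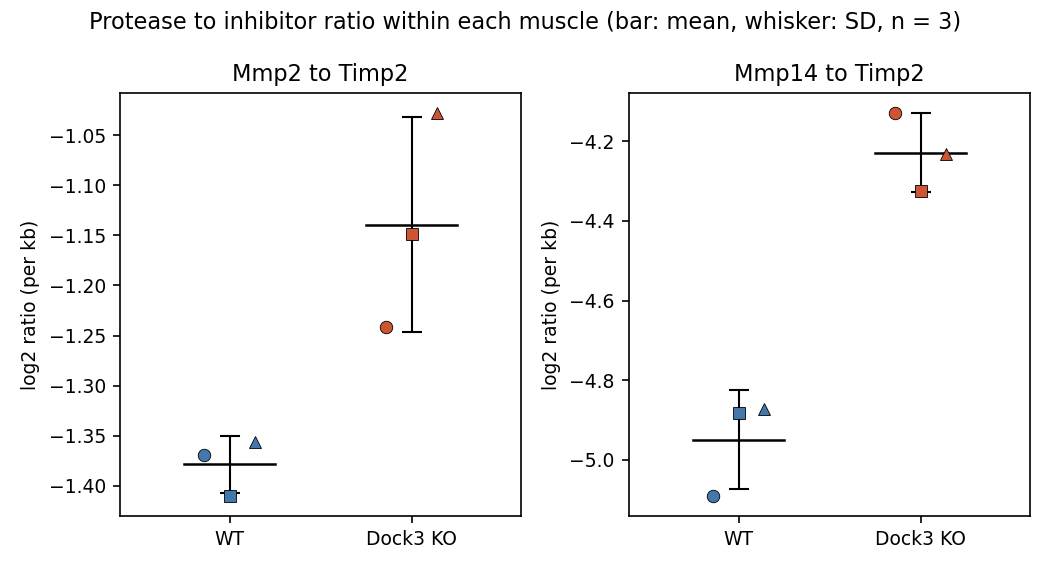
Log2 ratio of Mmp2 to Timp2 (left) and of Mmp14 to Timp2 (right) per kb in each muscle, with a bar at the mean and a whisker of 1 SD (n = 3); the vertical axes differ and do not start at 0. Dock3 KO muscles lie above WT muscles in both panels, by 0.24 and 0.72 between the means.

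Markers of cells that are known to make MMPs were read beside these values. Of 8 macrophage markers 0 passed the threshold in limma (1 was lower at an unadjusted p under 0.05). Their median log2 difference was -0.24, with 1 above 0. Groups did not overlap for 2 of the 8, both lower in Dock3 KO, against 8.65% of all genes tested. The summed level of the 8 was 5993 to 6660 normalized counts in WT and 5099 to 5894 in Dock3 KO. Neutrophil markers were low in both genotypes, summing over 7 genes to 26.6 to 48.1 in WT and 27.4 to 51.6 in Dock3 KO, with the defining genes Ly6g and Elane listed at 0 in all 6 muscles. Cxcr2, the 1 neutrophil marker with a mean of at least 10, ran from 11.7 to 28.9 in WT and from 16.5 to 31.0 in Dock3 KO (log2 difference 0.35, limma adjusted p 0.874), with its highest value in Dock3 KO replicate 1, and S100a8, S100a9, Mpo and Retnlg each lay between 0 and 11.9. The 6 tendon markers, none past the threshold in limma at either p, summed to 5560 to 11184 in WT and 8818 to 15740 in Dock3 KO. The highest sum was in Dock3 KO replicate 1, the muscle with the highest Mmp9 and Mmp14. The highest WT sum, 11184, was in WT replicate 1. That muscle had the lowest Mmp14 of all 6 (254 normalized counts) and the highest WT value of Mmp9 (74.0). The part of macrophages, neutrophils and tendon cells in the Mmp9 and Mmp14 values was not tested. Of 8 fibroblast markers 2 passed, and those are Col1a1 and Col3a1 themselves, and the median log2 difference of the 8 was -0.038, with 4 above 0. The other 6 did not pass: Pdgfra stood at 0.15 and Dpt at 0.26 on the log2 scale, and Dcn at -0.28, Lum at -0.48, Ly6a at -0.23 and Pi16 at -0.47 (limma adjusted p from 0.296, for Pi16, to 0.722, for Pdgfra).

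The rest of the pericellular proteolysis system was read from a list of 95 further genes, of which 74 were tested. In limma 2 passed the threshold, both higher in Dock3 KO and both collagens. At an unadjusted p under 0.05 there were 15 higher (20.3% of the 74, against 4.82% of all genes) and 2 lower (2.7%, against 5.7%). The median log2 difference was 0.15 over the 74 genes, -0.022 over the 8 tested members and -0.0073 over all genes tested. Of the 15 higher genes, 9 encode matrix substrates, 5 encode ADAMTS proteases and 1 is Thbs1. The list was drawn up with earlier results of these data known, so these shares are a description with no test. The filter on low values also shapes them. Adamts4 (WT mean 4.16, Dock3 KO mean 31.9) was kept through its Dock3 KO level. Mmp8 (10.2 and 2.35), lower in every Dock3 KO muscle than in any WT muscle, was left out.

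**Figure D5:**
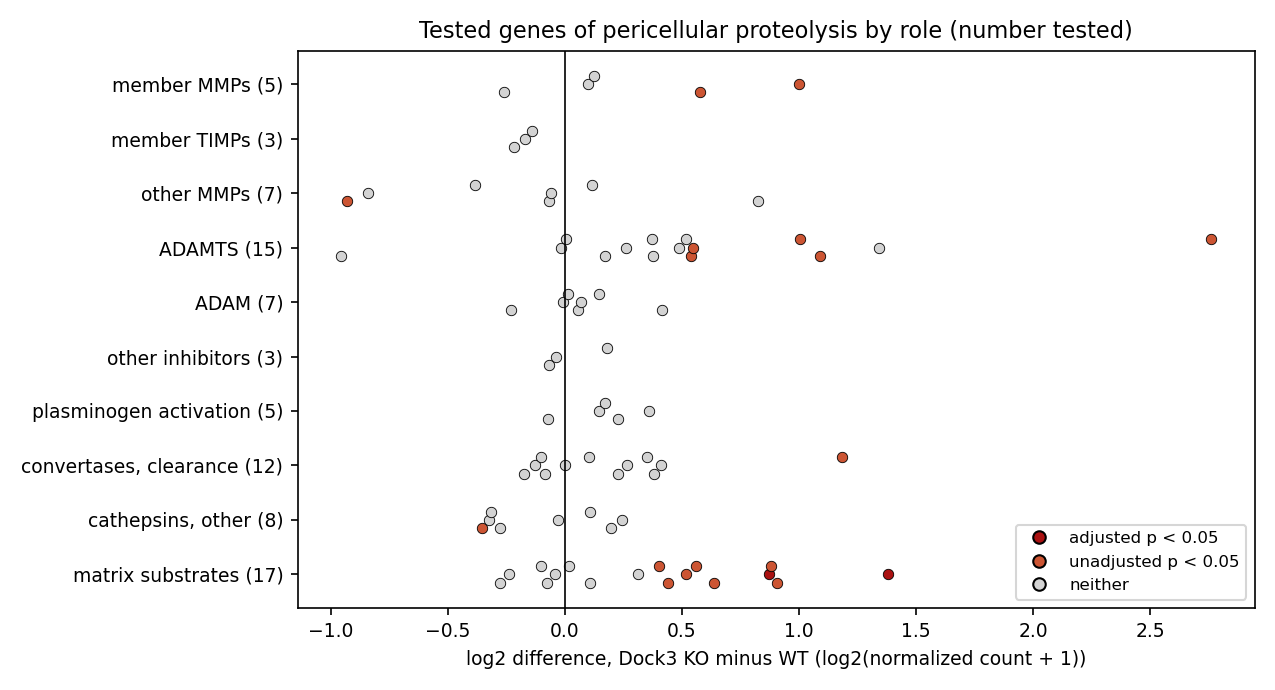
Log2 difference, Dock3 KO minus WT, of each tested gene by role, with the number tested in brackets; dark red marks an adjusted p under 0.05, red an unadjusted p under 0.05 and grey neither. Both dark red points are matrix substrates, and the point farthest to the right is Adamts4 at 2.76.

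Among the substrates of these enzymes, 9 of 17 tested genes (52.9%) had an unadjusted limma p under 0.05, all higher in Dock3 KO. Of all genes tested, 4.82% were higher at that p. Col1a1 and Col3a1, which encode the chains of the fibrillar collagens I and III, rose by 1.38 and 0.87 on the log2 scale (limma adjusted p 0.0228 and 0.0168), and these calls held in 12 and 11 of 20 alternatives. Col1a1 did not pass without any 1 of the Dock3 KO replicates 1, 2 or 3 (1.43, 1.42 and 1.28). Col3a1 did not without Dock3 KO replicate 1 or 2 or WT replicate 4 (0.83, 0.88 and 0.74). Neither passed when samples were rescaled to the same total (1.10 and 0.60, or 1.39 and 0.88 relative to the median of all genes). Under the replicate block Col3a1 stood at 0.74 and did not pass. Those that did not pass included Col1a2 at 0.88, Col5a1 at 0.64, and the basement membrane collagens Col4a1 at 0.52 and Col4a2 at 0.56. Tnc, which encodes tenascin-C, stood at 0.91, Lamb1 at 0.44, and Sparc, whose product binds collagen, at 0.40. The smallest adjusted p of these 7 genes was 0.0537, for Col1a2 (limma). Col3a1, Col1a2 and Col4a1 overlap another annotated gene on the same strand.

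The ADAMTS family, secreted proteases related to the MMPs that cut proteoglycans and process procollagen, had 15 tested genes. Of these, 13 had a log2 difference above 0, as did 7857 of all 16031 genes tested. In limma 0 passed the threshold, and 5 (33.3%) were higher at an unadjusted p under 0.05, against 4.82% of all genes. Adamts4, which encodes an aggrecanase, measured 6.57, 4.39 and 1.53 normalized counts in WT, against 41.2, 34.0 and 20.7 in Dock3 KO. All Dock3 KO values were above all WT values, but WT was at a few reads, and the gene entered the test only through its Dock3 KO level. The difference was 2.76 on the log2 scale (standard error 0.608, limma adjusted p 0.0829). Adamts9, which encodes a versican-cutting member, measured 152, 143 and 81.6 in WT, against 224, 303 and 257 in Dock3 KO. These groups were also separate, with a log2 difference of 1.09 (limma adjusted p 0.113). Adamts1, Adamts3 and Adamts10 had log2 differences of 0.55, 1.0 and 0.54, with overlapping groups and limma adjusted p-values from 0.346 to 0.472.

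Other MMPs had means of at most 69.9 normalized counts over the 6 muscles (Mmp28), against 97.7 for Mmp9, the lowest member MMP. In WT alone, Mmp11 and Mmp28 averaged 80.3 and 71.2, above Mmp9 at 64.7. These counts are not divided by length, so they do not order the genes by level. Of the 18 other MMP genes, 5 were listed at 0 in all 6 samples (Mmp1a, Mmp1b, Mmp7, Mmp20 and Mmp21) and 7 had a mean of at least 10 and were tested. Mmp11, which encodes stromelysin-3, measured 81.0, 55.7 and 104 in WT, against 41.8, 31.0 and 50.6 in Dock3 KO. The groups were separate, in the opposite direction to Mmp9 and Mmp14, with a log2 difference of -0.93 (limma adjusted p 0.318). None of these 7 passed the threshold in limma, and Mmp11 was the one with an unadjusted p under 0.05.

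Among genes that act on MMPs by other routes, 0 of 3 other inhibitors, 0 of 5 plasminogen activation genes and 0 of 12 convertase and clearance genes passed the threshold in limma, and of these Thbs1 alone had an unadjusted p under 0.05. Reck, which encodes a membrane-anchored MMP inhibitor, averaged 238 ± 6.56 in WT against 270 ± 17.7 in Dock3 KO (SD, n = 3 each), with a log2 difference of 0.18 (limma adjusted p 0.769). Furin, which encodes the convertase that cuts the membrane-type MMP precursors, had a log2 difference of -0.0014 with an interval of 0.795-fold to 1.26-fold. Plau, the gene of the urokinase plasminogen activator, and Lrp1, the gene of a receptor that clears MMPs and their complexes, both stood at 0.23 (limma adjusted p 0.671 and 0.689). Thbs1, which encodes thrombospondin-1, a matricellular protein that binds gelatinases, measured 857, 590 and 370 in WT, against 1546, 1172 and 1211 in Dock3 KO. Its groups were separate, with a log2 difference of 1.18 (limma adjusted p 0.0892). None of 7 ADAM genes passed in limma at either p, and of 8 cathepsins and other proteases 0 passed, with 1 at an unadjusted p under 0.05. This was Ctsd, the gene of the lysosomal protease cathepsin D, which had a log2 difference of -0.36 (limma adjusted p 0.326) and overlaps Gm49369 on the same strand.

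The genes whose pattern was most like that of the most abundant MMP and TIMP were picked from 11810 genes with a mean of at least 50, by Pearson's r of log2 values over the 6 muscles, and given as a description because they are the highest of so many. For Mmp2 they were Fam174a (r = 0.996), Ensa (0.982) and 2310001H17Rik (0.981). For Timp2 they were Pf4 (0.9997), Sdc1 (0.985) and Dbnl (0.983). The 6 points of each share library and depth, and Spearman's rho lay between 0.829 and 1.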

How the data were processed

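The authors deposited 1 table of normalized counts per gene, used here as a signal because its values are not whole. Per the submitters' processing notes, FastQC, Trim Galore 0.4.5, Salmon 0.12.0, DESeq2 1.22.1 and R 3.5.3 were used with mm10 and GRCm38; their roles and order, the annotation and the handling of multi-mapped reads are not given in the sources used here. Libraries were ribosome-depleted, stranded and read in pairs, per the labels' protocols. The median ratio to the geometric mean was 1.005 in every sample. Low values were whole multiples of 1 read's worth, within 0.01, in 13.95% to 20.75% of cases, so whole reads were not recovered and no count test or counting interval is given.

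All 54393 identifiers matched GENCODE M21. Values were converted to log2(normalized count + 1), and genes with a mean of at least 10 were kept. Genotypes were compared in limma 3.58.1 (R 4.3.3, lmFit, eBayes with a trended prior variance) without covariates, with Benjamini-Hochberg adjustment over all genes tested. The steps were tested on simulated data with the same spread setting for every gene. Of 100 changes of log2 size 1, 48 passed the threshold, as did 94 of 100 of log2 size 2 and 8 unchanged genes. The spread of the real data may differ. A log2 difference on this scale understates the change of low genes. Copies were searched with blastn 2.17.0 (at least 100 aligned bases), and sequences were read with Biopython 1.88 from GENCODE M21 and RefSeq. The marked coding stretches were found by translating the longest coding sequence of each member. The residue pattern searched was HExxHxxGxxH for MMPs and C[ST]CxPxHP for TIMPs, where x is any residue. Protein sequences were not analysed otherwise. The rule for named genes took all members, Dock3, genes overlapping a member, genes of the proteolysis list past the threshold and the next 15 by p, and the 3 most alike genes; Reck, Furin, Plau, Lrp1, Mmp1a, Mmp1b, Mmp7, Mmp20, Mmp21 and the marker genes given by name were named after their values were seen. Members, lists and alternatives were chosen with earlier results of these data known. Marker lists that are not described in the report were those of mast, endothelial, smooth muscle, satellite, Schwann and fat cells and erythrocytes, of whose 35 genes 0 passed the threshold in limma (1 higher and 3 lower at an unadjusted p under 0.05).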

Additional observations from a re-analysis of the deposited data

How the results depend on the processing

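No member passed the threshold in any of 20 alternatives (limma), and Mmp9, Mmp14, Timp2 and Timp3 kept their direction in all of them. Rescaled to the same total, which moved the median of all genes by -0.28, Mmp2 stood at -0.18 and Mmp15 at -0.15; rescaled without Gm42418 and Lars2, which moved it by -0.11, Mmp2 stood at -0.0055. Relative to that median, Mmp9 was at 1.01 under both scalings. Timp4 stood at 0.70 with log2 Gm42418 as a covariate and at 0.62 with Dock3 KO replicate 3 as the lone Dock3 KO sample. Leaving out 1 sample at a time, Timp4 ranged from -0.64 to 0.28 and Mmp19 from -0.45 to 0.091.

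The count of 165 genes past the threshold was 104 with a prior variance without trend and 104 with protein-coding genes only (fewer genes tested), 57 with the Gm42418 covariate and 56 with the lone Dock3 KO sample. Of these counts 71, 34, 17 and 9 were higher in Dock3 KO in the main, untrended, covariate and lone-sample settings, and 41 of 180 when rescaled to the same total. It was 100 to 159 without 1 sample, with 35 to 69 higher. The 2 proteolysis genes became 4 with no filter on low values, 1 with the replicate block, and 0 with either rescaling, without trend, with the covariate and with the lone sample; without 1 sample they were 0 to 3, and 0 without Dock3 KO replicate 1 or 2. Same-numbered samples share only a number: their deviations from group means correlated at 0.065 and 0.0066. Under the block, 127 genes passed, Mmp9 stood at 1.04 and Mmp14 at 0.66. Other causes were not tested. Depth limits Timp1 most.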
